A study of Mus musculus with 5 samples.

Results

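Cyclins are regulatory subunits that switch on cyclin-dependent kinases (CDKs), and the pairs they form drive a cell from one phase of the division cycle to the next. A set of 34 genes of this machinery was examined, out of 20224 genes in the deposited count table of sorted mouse sympathetic neurons. The set was chosen by name, with earlier results of these data known: the S-to-M-phase members (*Ccna2*, *Ccnb1*, *Ccnb2*, *Ccnf*, *Cdk1*, *Cdc25b*, *Cdc25c*, *Cks1b*, and *Cks2*), the G1 and G1/S members (*Ccnd1*, *Ccnd2*, *Ccnd3*, *Ccne1*, *Ccne2*, *Cdk2*, *Cdk4*, *Cdk6*, and *Cdc25a*), the inhibitors and inhibitory kinases (*Cdkn1a*, *Cdkn1b*, *Cdkn2a*, *Cdkn2b*, *Cdkn2c*, *Cdkn2d*, *Cdkn3*, *Wee1*, and *Pkmyt1*), the neuronal *Cdk5* group (*Cdk5*, *Cdk5r1*, and *Cdk5r2*), the CDK-activating kinase (*Ccnh* and *Cdk7*), and the cyclins G (*Ccng1* and *Ccng2*). The table holds a row for 33 of them, and *Cdkn2a* was not analysed here. Of these, 31 had enough counts to be tested, and 29 of the tested genes had 10 or more counts in every library.

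The libraries were made at E14.5 (embryonic day) from sympathetic ganglia of non-diabetic pregnancies, 2 from control embryos (replicates 5 and 6) and 3 from *Hif1aCKO* embryos (replicates 3, 4, and 5). *Hif1aCKO* embryos had 2 loxP-flanked *Hif1a* alleles and *Isl1-Cre*, a knock-in that expresses Cre recombinase from the *Isl1* locus. The control embryos also carried *Isl1-Cre*, with 1 loxP-flanked *Hif1a* allele (Hif1a loxP/+). Both groups carried the Ai14 reporter, which gives tdTomato after Cre recombination, and the *Prph-eGFP* transgene, which labels peripheral neurons. Each library came from 100 cells positive for both colors, so the cells compared had all had Cre activity. No library measured neurons with 2 intact *Isl1* copies or with 2 unflanked *Hif1a* alleles. The 1 flanked *Hif1a* allele of the controls was open to deletion too. The lines came from C57BL/6J, C57BL/6N, and FVB backgrounds. The study calls the sorted samples biological replicates, and whether 1 library stands for 1 embryo was not stated. The p-values below therefore measure the spread between these libraries.

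In the cell cycle, D-type cyclins act with Cdk4 and Cdk6 in G1, E-type cyclins with Cdk2 at the start of DNA replication, cyclin A with Cdk2 and Cdk1 in S and G2 phases, and B-type cyclins with Cdk1 at entry into mitosis. Cdc25 phosphatases remove inhibitory phosphates that the kinases Wee1 and Myt1 put on CDKs, and the INK4 and CIP/KIP proteins bind CDK complexes and block them. Sympathetic neuroblasts are known for dividing while they already express neuronal genes, and Cdk5, a kinase of neurons after division, works with p35 or p39 in place of a cyclin.

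The total count per library ranged from 8254211 to 9700887, with normalization factors (TMM) from 0.974 to 1.03. All 12 sympathetic neuron markers examined were detected, and they summed to 9010 and 11100 CPM (counts scaled to a common library total) in controls and to between 8070 and 8350 in *Hif1aCKO*. *Stmn2* had the most counts of them (18771 to 29537), and *Isl1*, the locus of the Cre knock-in, is among the 12. The markers did not all go in 1 direction. *Th* had 2878 and 7531 counts in controls and 1569, 1517, and 2654 in *Hif1aCKO*. *Hand2* had 1240 and 1175 against 1386, 1977, and 1964, and *Phox2a* 265 and 323 against 262, 505, and 436. Markers of Schwann cell precursors summed to 185 CPM in *Hif1aCKO* replicate 3, mostly *Fabp7* with 926 counts, and to between 5.97 and 13.7 in the other libraries. Of 8 such markers 5 had a row, and *Sox10*, a defining one, had 8 counts in that library and at most 1 in the others. Markers of mesenchyme, endothelium, and erythroid cells were at 4.23 CPM or less in every library. Those of motor neurons summed to 77.3 and 105 in controls and to between 33.7 and 62.2 in *Hif1aCKO*. Those of sensory neurons ranged from 60.2 to 107. A row was present for 5 of 8 mesenchyme, 2 of 6 endothelium, 1 of 7 erythroid, 3 of 5 motor neuron, and 3 of 5 sensory neuron markers. Most sensory neuron marker counts were of *Prrxl1* (492 to 891), and most motor neuron marker counts of *Slc18a3* (266 to 905). These sums therefore do not show how many such cells were present. The part of the lower neuronal marker sums in the results was not tested, and values without *Hif1aCKO* replicate 3 are given for the S-to-M genes and the inhibitors. *Hif1a* had 2086 and 1584 normalized counts in controls and 2747, 1757, and 2135 in *Hif1aCKO*. These are reads over the whole gene, and since the deletion takes out exon 2 alone, they check nothing about the deleted part. *Isl1* had 12580 and 14020 normalized counts in controls and 8634, 7800, and 8722 in *Hif1aCKO* (log2 fold change -0.67 ± 0.10 SE, adjusted p = 0.446 in edgeR and 0.000214 in DESeq2, which called it lower), and *Prph* was present in all libraries at between 4483 and 6541.

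The comparison asked how the RNA of these regulators differed between sympathetic neurons with 2 flanked *Hif1a* alleles (*Hif1aCKO*) and with 1 (control). Cre was present in both groups, so *Hif1aCKO* was not compared with neurons of intact *Hif1a*. The members of S to M phase were higher in *Hif1aCKO* without exception in the fitted direction, while the G1 members went in both directions and *Ccnd1*, by far the most abundant cyclin, was lower. To be called, a gene needed an adjusted p-value under 0.05, a mean of 50 or more normalized counts over the libraries, and a log2 fold change beyond 0.3 in size, and no member met all of these in the main test. The edgeR quasi-likelihood test called 0 of 31 members and 0.0% of the 15032 genes tested, and limma-voom called 0 members. DESeq2 called 2 members, *Ccnb1* (higher) and *Ccnd1* (lower). In each direction it called 0.149% of the 20175 genes it fitted, which is 0.194% of the 15478 genes it gave an adjusted p-value. At an unadjusted p-value under 0.05 in the edgeR test, 9 members were higher, against 3.83% of all genes tested, and 2 were lower, against 3.85% (in either direction, 11 members against 7.67%). Leaving out control replicate 6 lowered the first count to 2, and leaving out *Hif1aCKO* replicate 4 lowered it to 4. The count of lower members was 1 without control replicate 5 and 1 without control replicate 6. With 2 libraries against 3 there are 10 splits, and the smallest p-value of an exact test for 1 gene is 0.1. Because the members were chosen with earlier results of these data known, the counts and shares given here and below only describe them.

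Over all members tested, 22 had a fitted fold change above 0, against 51.3% of all genes tested, and 9 were below. The median log2 fold change was 0.54 over the S-to-M members, 0.37 over the inhibitors and inhibitory kinases, 0.08 over the G1 and G1/S members, and 0.012 over all genes tested. All *Hif1aCKO* libraries were above both control libraries for 12 members, against 12.9% of all genes tested, and below both for 2 members, against 12.9%. Of the 12 members, 8 belong to S to M phase, 2 to the inhibitors (*Cdkn3* and *Wee1*), 1 to G1 (*Cdk6*), and 1 to the Cdk5 group (*Cdk5r1*). The 2 members below were *Ccnd1* and *Ccnh*. In these bulk samples, a different number of dividing cells among the 100 sorted and a different amount of RNA per cell cannot be told apart.

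**Figure D1:**
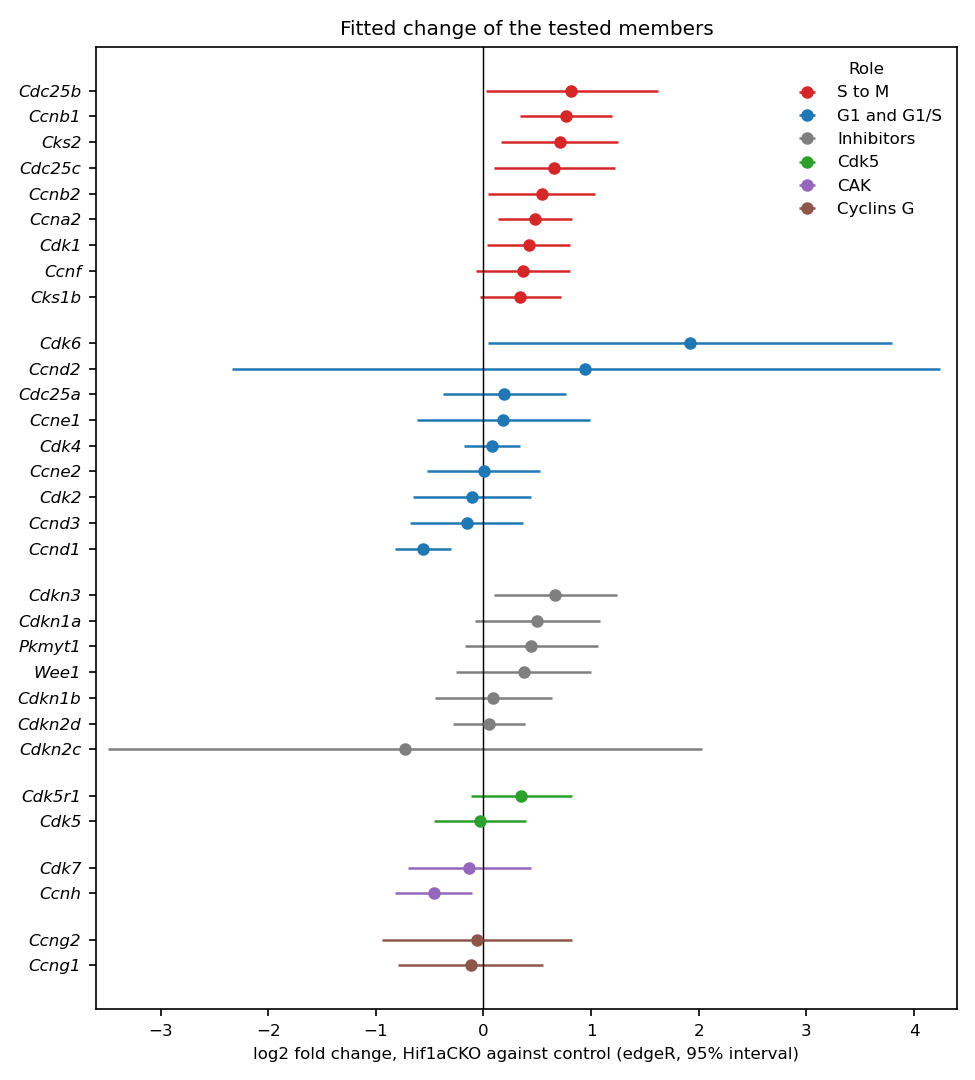
Log2 fold change of each of the 31 tested members, *Hif1aCKO* (n = 3) against control (n = 2), from the edgeR fit; points are the estimates, lines their 95% intervals, colors the roles (CAK, CDK-activating kinase). All 9 S-to-M members lie above 0, *Ccnd1* and *Ccnh* lie below 0 with their whole intervals, and the intervals of *Ccnd2*, *Cdk6*, and *Cdkn2c* are widest.

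The S-to-M-phase genes all had higher fitted values in *Hif1aCKO*, by 1.27-fold (*Cks1b*) to 1.76-fold (*Cdc25b*). *Ccnb1*, which encodes cyclin B1, the partner of Cdk1 at entry into mitosis (ENSMUSG00000041431, chr13:100778650-100786570 on GRCm38), had 2350 and 2077 normalized counts in controls and 3230, 4659, and 3382 in *Hif1aCKO*. The lowest *Hif1aCKO* library was above the highest control, and replicate 4 was the highest of all. The fold change was 1.70 (log2 0.76 ± 0.19 SE, 95% interval 0.34 to 1.19), with an unadjusted p-value of 0.00329 and an adjusted p-value of 0.586 in edgeR. The adjusted p-value of DESeq2 was 0.0178, and the range over all alternatives and left-out libraries was 0.000343 to 0.999. The log2 fold change without 1 library lay between 0.58 and 0.86.

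*Ccna2*, which encodes cyclin A2 of S and G2 phases (chr3:36564865-36572150), had 2776 and 2143 normalized counts in controls and 3516, 3277, and 3512 in *Hif1aCKO* (log2 fold change 0.48 ± 0.15 SE, adjusted p = 0.599). The *Hif1aCKO* libraries lay close together and above both controls, which differed more from each other. *Ccnb2*, the cyclin B2 gene (chr9:70407692-70421547), had 1651 and 1024 in controls and 2139, 1930, and 1768 in *Hif1aCKO* (log2 fold change 0.54 ± 0.22 SE, adjusted p = 0.627). The gap between its highest control and its lowest *Hif1aCKO* library was smaller than the SD of the *Hif1aCKO* libraries (186), and leaving out control replicate 6 lowered the log2 fold change to 0.23. *Ccnf*, which encodes cyclin F, an F-box protein that directs other proteins to degradation, had 601.0 and 691.9 in controls and 750.6, 974.6, and 777.5 in *Hif1aCKO*.

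*Cdk1*, which encodes the mitotic kinase itself (chr10:69335146-69352938), had 2114 and 1757 normalized counts in controls and 2424, 3022, and 2316 in *Hif1aCKO* (log2 fold change 0.42 ± 0.17 SE, adjusted p = 0.627). The groups did not overlap. *Cks1b* and *Cks2* encode small proteins that bind CDKs and help them dock on their substrates. *Cks2* had 343.7 and 285.7 normalized counts in controls and 475.0, 628.1, and 438.8 in *Hif1aCKO* (log2 fold change 0.71 ± 0.24 SE, adjusted p = 0.621), again without overlap. *Cks1b* had 2763 and 2084 in controls and 3167, 2760, and 3282 in *Hif1aCKO*, and was the S-to-M gene whose groups overlapped, by the small margin between control replicate 5 and *Hif1aCKO* replicate 4.

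*Cdc25b* and *Cdc25c* encode phosphatases that activate Cdk1. *Cdc25b* had 123.9 and 207.8 normalized counts in controls and 238.0, 387.4, and 253.0 in *Hif1aCKO*. Its interval was wide, from 0.021 to 1.62 on the log2 scale. *Cdc25c* had 1086 and 730.0 in controls and 1215, 1806, and 1279 in *Hif1aCKO* (log2 fold change 0.66 ± 0.25 SE, adjusted p = 0.621). Both were highest in replicate 4 and did not overlap between the groups. Of the exonic bases of *Cdc25c*, 12.7% are shared with the antisense gene *Gm3550*, which had at most 157 counts.

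**Figure D2:**
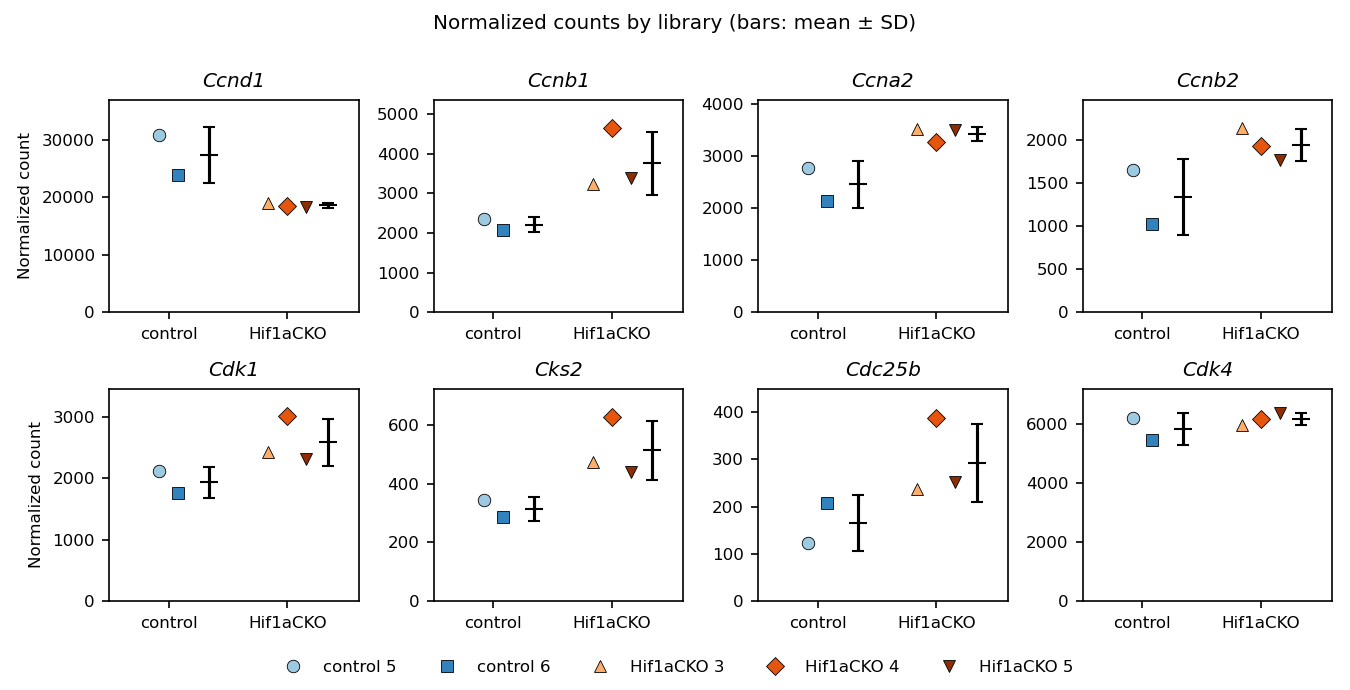
Normalized counts of 8 members in each library; symbols are libraries, horizontal marks with bars are the mean ± SD of the control (n = 2) and *Hif1aCKO* (n = 3) groups, and each vertical axis starts at 0. *Ccnd1* is lower in the 3 *Hif1aCKO* libraries, *Ccnb1*, *Ccna2*, *Ccnb2*, *Cdk1*, *Cks2*, and *Cdc25b* are higher in them, and *Cdk4* overlaps.

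The libraries differed in their level of the S-to-M genes as a group. As the log2 difference from a gene's mean over the 5 libraries, their median in the controls was -0.12 (replicate 5) and -0.48 (replicate 6). In *Hif1aCKO* it was 0.10 (replicate 3), 0.40 (replicate 4), and 0.12 (replicate 5). Control replicate 6 was the lowest library in this measure and *Hif1aCKO* replicate 4 the highest, with the top value for 6 of the 9 genes. *Ccna2* and *Ccnb2* were highest in *Hif1aCKO* replicate 3 and *Cks1b* in replicate 5, and *Ccnf* and *Cdc25b* were higher in control replicate 6 than in control replicate 5. Control replicate 5 and *Hif1aCKO* replicates 3 and 5 lay closer to each other. All 9 genes were higher in *Hif1aCKO* whichever library was left out, and their median log2 fold change then ranged from 0.39 (without control replicate 6) to 0.68 (without control replicate 5). The number at an unadjusted p-value under 0.05, 7 of 9 with all libraries, was 2 without control replicate 6 and 4 without *Hif1aCKO* replicate 4. Without *Hif1aCKO* replicate 3, the library with the Schwann cell precursor markers, it was 6, with a median of 0.47. With a term for the 2 libraries that held at least 100 counts of *Xist*, 1 of each group, the median was 0.64 and 6 genes were under that p-value. With all libraries and no such term, 3.83% of all genes tested were higher under that p-value. Shares for the other fits are not given, so their counts have no background beside them.

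**Figure D3:**
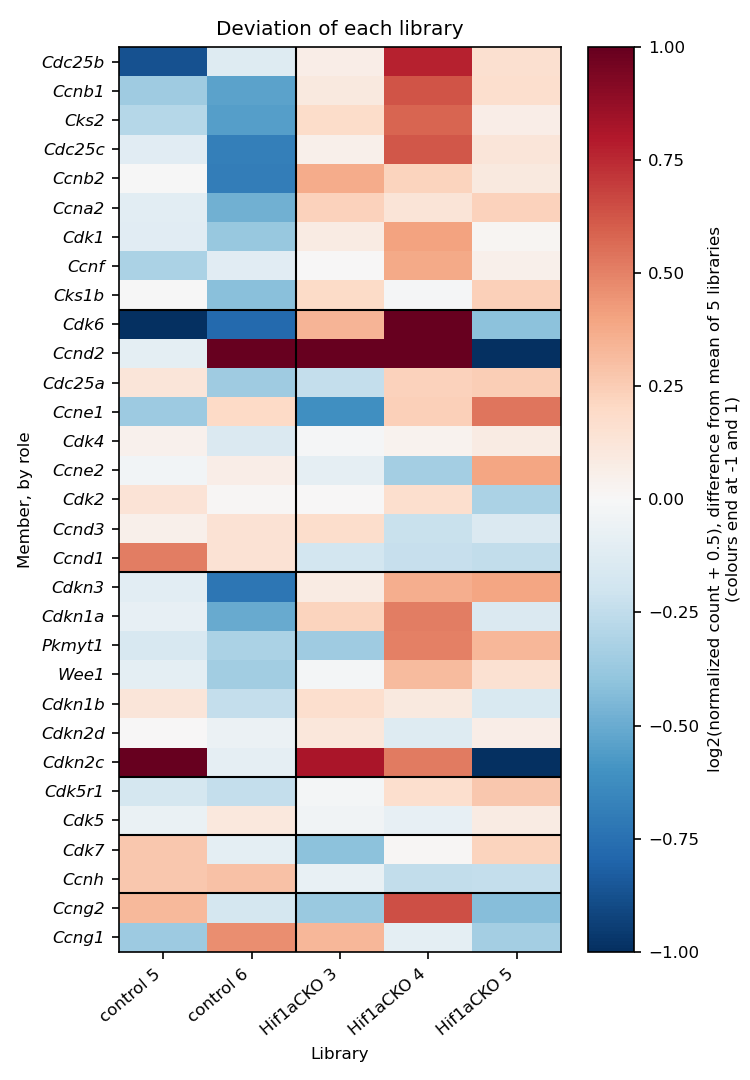
Each cell gives the log2 difference of a member (rows, grouped by role, separated by black lines) in a library (columns) from that member's mean over the 5 libraries, with colors ending at -1 and 1. The top block, the S-to-M genes, is blue in control replicate 6 and red in *Hif1aCKO* replicate 4 except for *Cks1b*, which is near 0 there, while the G1 block has no such common pattern.

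Genes of mitotic entry are known to share promoter elements, the CCAAT box bound by NF-Y and the CHR (cell cycle genes homology region) bound by the MuvB complex. Promoters from RefSeq on GRCm38.p6 were given for 24 of the 34 members, 7 of them S-to-M genes. In the 250 bases before the start site, searched on both strands, CCAAT was found in all 7 of these genes and in 33.8% of 32851 promoters, and TTTGAA, the core of the CHR, was found in 4 (*Ccnb2*, *Ccnf*, *Cdk1*, and *Cks1b*) and in 16.0% of all promoters. *Ccnb1*, *Ccnb2*, and *Cdk1* held 2 CCAAT on the same strand with starts 31 to 35 bases apart, as did 0.843% of all promoters, a spacing noticed only after these promoters had been read. A match is a run of letters, not a measured binding site. The promoters of *Ccnb1*, *Ccnb2*, *Cdk1*, and *Ccnf* are printed to show the matches outside annotated exons, 5′ to 3′ on the strand of the gene. Leaving out exonic bases removed matches nearer to the start, among them the second CCAAT of *Ccnb1*, whose printed stretch holds no TTTGAA. It also removed TTTGAA at -15 (*Cdk1*) and -14 (*Ccnf*) from the start. In *Ccnb2* the marked TTTGAA, at -167, lies before all 3 CCAAT. Bases after the start were not searched. Capitals mark CCAAT and TTTGAA in either orientation (ATTGG is CCAAT on the other strand), and no marked matches overlap.
Ccnb1, minus strand, chr13:100786571-100786736: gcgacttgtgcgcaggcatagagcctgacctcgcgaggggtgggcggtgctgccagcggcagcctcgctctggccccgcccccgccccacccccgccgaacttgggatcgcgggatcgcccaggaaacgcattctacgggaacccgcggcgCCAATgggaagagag
Ccnb2, minus strand, chr9:70421555-70421734: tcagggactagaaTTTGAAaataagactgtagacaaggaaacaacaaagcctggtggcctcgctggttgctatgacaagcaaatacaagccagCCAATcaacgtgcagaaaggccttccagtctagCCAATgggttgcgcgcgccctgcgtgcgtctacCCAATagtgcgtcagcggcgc
Cdk1, minus strand, chr10:69352939-69353118: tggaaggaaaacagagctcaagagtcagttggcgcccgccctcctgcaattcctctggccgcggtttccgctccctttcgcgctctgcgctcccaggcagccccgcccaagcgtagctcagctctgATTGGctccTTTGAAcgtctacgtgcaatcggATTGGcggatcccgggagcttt
Ccnf, minus strand, chr17:24251485-24251659: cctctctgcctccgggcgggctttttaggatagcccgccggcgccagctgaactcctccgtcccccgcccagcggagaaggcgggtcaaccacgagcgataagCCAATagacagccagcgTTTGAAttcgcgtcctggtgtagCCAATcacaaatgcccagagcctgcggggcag

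Outside the S-to-M genes, TTTGAA was found in 2 inhibitor genes, *Cdkn2b* and *Cdkn3*, and in none of the 6 G1 and G1/S genes with a promoter. CCAAT was found in 3 of these 6 genes and in 3 of the 7 inhibitor genes with a promoter. It was also found in 1 of the 2 cyclins G and in *Cdk5r2*, the 1 gene of the *Cdk5* group with a promoter. The promoter of *Ccna2*, *Cdc25c*, and *Ccnd1* was not in the table used.

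The G1 and G1/S genes did not move as a group. Of the 9, 6 were fitted higher, against 51.3% of all genes tested, and 3 lower. Under an unadjusted p-value of 0.05, 1 was higher (*Cdk6*), against 3.83% of all genes tested, and 1 lower (*Ccnd1*), against 3.85%. The median of 0.08 over the 9 genes became -0.044 without control replicate 5, -0.015 without control replicate 6, and -0.028 in limma-voom. *Ccnd1*, which encodes cyclin D1, the D-type cyclin that couples growth signals to Cdk4 and Cdk6 (ENSMUSG00000070348, chr7:144929931-144939925), had 30820 and 23890 normalized counts in controls and 19060, 18420, and 18210 in *Hif1aCKO*. The SD of the 3 *Hif1aCKO* libraries was 441, and both controls were above them, replicate 5 further than replicate 6. The fold change was 0.679 (log2 -0.56 ± 0.11 SE, 95% interval -0.82 to -0.30), with an unadjusted p-value of 0.00102 and an adjusted p-value of 0.567 in edgeR. In DESeq2 the adjusted p-value was 0.0194, with a range from 0.00189 to 0.999 over all alternatives and left-out libraries. Without control replicate 5 the log2 fold change was -0.37, and without control replicate 6 it was -0.74.

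The counting was stated to use default parameters, with no strand setting named, and 23.4% of the exonic bases of *Ccnd1* lie opposite the gene listed as *LTO1*. That gene had 6887 and 5931 counts in controls and 3231, 5017, and 4645 in *Hif1aCKO* (log2 fold change -0.55, unadjusted p = 0.0162), so it was lower together with *Ccnd1*. How reads were divided between them was not tested.

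Per length, on the TPM scale (counts divided by exonic length and scaled to the same total in each library), *Ccnd1* had a level of 2020 ± 364 TPM in controls (SD, n = 2) and 1380 ± 47.3 TPM in *Hif1aCKO* (SD, n = 3). It ranked between 33 and 60 among all genes in the 5 libraries. Within the D-type cyclins it made up between 98.8% and 99.4% of the summed TPM in every library. *Ccnd3* had 14.1 ± 0.645 TPM in controls and 12.8 ± 1.98 TPM in *Hif1aCKO*, with normalized counts of 344.8 and 368.2 against 375.3, 284.6, and 301.6, so its groups overlapped. *Ccnd2* was low and uneven, with 17 and 52 counts in controls and 39, 150, and 0 in *Hif1aCKO*. A count of 0 in *Hif1aCKO* replicate 5 allows up to 0.338 CPM (3 counts), and the 95% interval of the *Ccnd2* log2 fold change, -2.34 to 4.24, leaves its direction undetermined.

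*Cdk4*, the kinase partner of the D-type cyclins (chr10:127063534-127067920), differed little between the groups. It had 6230 and 5469 normalized counts in controls and 5999, 6180, and 6389 in *Hif1aCKO*, and the log2 fold change was 0.08 ± 0.11 SE, with a 95% interval of -0.18 to 0.34. Of its exonic bases, 19.7% lie opposite *Tspan31*, whose groups overlapped too. On the per-length scale its level was 627 ± 58.2 TPM in controls and 666 ± 14.1 TPM in *Hif1aCKO*, which put it between rank 184 and rank 239. *Cdk6*, which has the same role, was hardly expressed, at 0.389 to 3.33 TPM. It had 15 and 21 counts in controls and 40, 132, and 26 in *Hif1aCKO*, a fitted 3.78-fold difference with a 95% interval of 0.038 to 3.80 on the log2 scale. Replicate 4 held the largest of these counts, and without it the log2 fold change was lowest, at 0.95. In the promoter of *Cdk4*, CACGTG, the E-box bound by Myc family proteins, was found 4 times in the 250 bases before the start, and 6.02% of all promoters hold it at least once. *Cdk6* was the other G1 gene with a match, and outside that role *Cdk7* held it. The stretch is printed, with CACGTG in capitals, to show this spacing in a gene whose level did not differ detectably.
Cdk4, plus strand, chr10:127063354-127063533: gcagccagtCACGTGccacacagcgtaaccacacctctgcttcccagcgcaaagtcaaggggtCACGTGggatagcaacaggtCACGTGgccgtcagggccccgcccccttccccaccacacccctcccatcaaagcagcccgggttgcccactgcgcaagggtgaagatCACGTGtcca

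The genes of the G1/S transition stayed within the spread of the libraries. *Ccne1*, an E-type cyclin, had 298.9 and 442.4 normalized counts in controls and 252.0, 453.4, and 559.5 in *Hif1aCKO* (log2 fold change 0.19 ± 0.35 SE). *Ccne2*, the other E-type cyclin, had 878.1 and 934.9 in controls and 839.6, 707.0, and 1177 in *Hif1aCKO*, a log2 fold change of 0.0025 ± 0.23 SE. *Hif1aCKO* replicate 5 was the highest library for both, and 17.4% of the exonic bases of *Ccne2* lie opposite *Ints8*. *Cdk2*, the partner of the E-type cyclins, had 346.8 and 319.1 in controls and 317.4, 354.5, and 254.0 in *Hif1aCKO* (95% interval of the log2 fold change -0.66 to 0.44). *Cdc25a*, the phosphatase that acts on Cdk2, had 465.6 and 334.8 in controls and 363.5, 502.3, and 507.0 in *Hif1aCKO*. Of these 4 genes none had groups that stood apart, and the intervals do not exclude changes of the size seen in *Cdk1*.

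The opposite directions of *Ccnd1* and *Ccnb1* gave a ratio within each library that does not depend on normalization. There were 13.1 and 11.5 *Ccnd1* counts per *Ccnb1* count in controls and 5.90, 3.95, and 5.39 in *Hif1aCKO*, so the group means were 12.3 ± 1.14 (SD, n = 2) and 5.08 ± 1.01 (SD, n = 3). Against *Cdk4*, the *Ccnd1* ratio was 4.95 and 4.37 in controls and 3.18, 2.98, and 2.85 in *Hif1aCKO*. Against *Cdk4*, the *Ccnb1* ratio was 0.377 and 0.380 in controls and 0.538, 0.754, and 0.529 in *Hif1aCKO*. Each of these ratios separated the groups, and since both genes were singled out for their differences, no test was made of them. *Ccnb1* counts per count of *Mki67*, which encodes the proliferation marker Ki-67, overlapped, with a mean of 1.16 ± 0.0327 in controls (SD, n = 2) and 1.14 ± 0.113 in *Hif1aCKO* (SD, n = 3). *Mki67* itself had 2069 and 1757 normalized counts in controls and 3014, 3672, and 3150 in *Hif1aCKO* (log2 fold change 0.78 ± 0.15 SE, adjusted p = 0.567 in edgeR and 0.00139 in DESeq2, which called it). *Top2a*, the topoisomerase of dividing cells, had 3977 and 4044 in controls and 4543, 5196, and 4608 in *Hif1aCKO* (log2 fold change 0.25 ± 0.12 SE). *Ccnb1* counts per *Top2a* count were 0.591 and 0.514 in controls and 0.711, 0.897, and 0.734 in *Hif1aCKO*, and *Ccnb1* counts per *Cdk1* count had a mean of 1.15 ± 0.0501 against 1.44 ± 0.106. The fitted change of *Ccnb1* was thus larger than those of *Top2a* and *Cdk1* and close to that of *Mki67*, and these differences between genes were not tested.

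**Figure D4:**
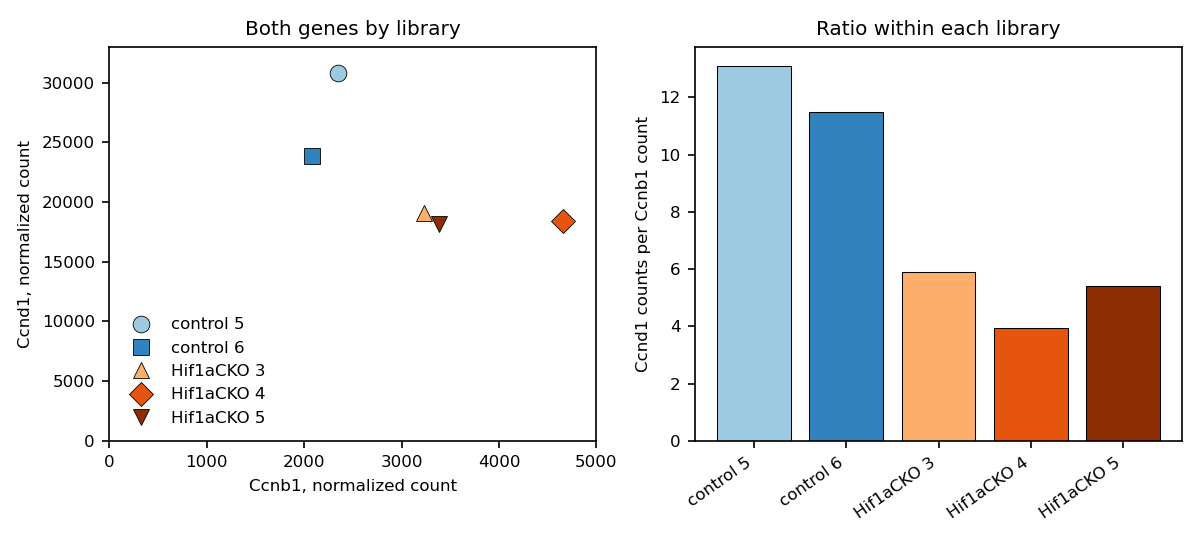
Left, normalized counts of *Ccnd1* (vertical) against *Ccnb1* (horizontal), 1 symbol per library, both axes from 0; right, *Ccnd1* counts per *Ccnb1* count in each library. The controls lie at high *Ccnd1* and low *Ccnb1*, with ratios of 13.1 and 11.5, and the *Hif1aCKO* libraries at ratios between 3.95 and 5.90.

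The inhibitors and inhibitory kinases included genes that were higher and genes that differed little. Of 7 tested, 6 were fitted higher, against 51.3% of all genes tested. At an unadjusted p-value under 0.05, 1 was higher, against 3.83% of all genes tested. Without *Hif1aCKO* replicate 3, 5 were fitted higher, 2 were under that p-value, and the median log2 fold change was 0.45. The gene under that p-value with all libraries was *Cdkn3*, which encodes a phosphatase that acts on CDKs. Its log2 fold change was 0.67 ± 0.25 SE (adjusted p = 0.621), from raw counts of 371 and 272 in controls and 410, 535, and 561 in *Hif1aCKO*. All 3 *Hif1aCKO* values were above both controls. *Wee1*, a kinase that holds back Cdk1, had 181.2 and 153.0 normalized counts in controls and 191.9, 241.7, and 216.0 in *Hif1aCKO*, with no overlap and a log2 fold change of 0.37 ± 0.27 SE. *Pkmyt1*, the gene of the Myt1 kinase, had 486.4 and 435.0 in controls and 423.5, 769.9, and 683.1 in *Hif1aCKO*, where replicate 3 fell below the controls. *Cdkn1a*, which encodes p21, had raw counts of 423 and 355 in controls and 508, 666, and 435 in *Hif1aCKO*, and a log2 fold change of 0.50 ± 0.25 SE with overlapping groups once normalized.

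Besides *Cdkn1a*, the other inhibitors of the INK4 and CIP/KIP kind had overlapping groups or very few counts. *Cdkn2d*, the INK4 gene of p19, was the most abundant inhibitor per length, at 397 ± 11.8 TPM in controls and 412 ± 34.8 TPM in *Hif1aCKO*. Its log2 fold change was 0.049 ± 0.15 SE, with a 95% interval of -0.28 to 0.38. *Cdkn1b*, which encodes p27, had 24.3 ± 4.25 TPM in controls and 26.1 ± 3.30 TPM in *Hif1aCKO* (95% interval of the log2 fold change -0.45 to 0.63). *Cdkn2c*, the p18 gene, had 24 and 9 counts in controls and 15, 13, and 1 in *Hif1aCKO*, too few to give a direction. *Cdkn2b*, the p15 gene, was too low to be tested, with 1 count in control replicate 5 and 0 in the other libraries, where 0 allows up to 0.363 CPM.

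In the *Cdk5* group, which serves neurons after division, the groups overlapped for the kinase and not for its activator p35. *Cdk5* had 462.5 and 522.2 normalized counts in controls and 472.9, 458.3, and 513.8 in *Hif1aCKO*, and the log2 fold change was -0.032 ± 0.18 SE (95% interval -0.46 to 0.39). *Cdk5r1*, which encodes its activator p35, had 360.4 and 344.1 in controls and 401.0, 457.3, and 490.4 in *Hif1aCKO*. Its groups did not overlap, at a log2 fold change of 0.35 ± 0.20 SE and an adjusted p-value of 0.715. *Cdk5r2*, the gene of p39, had 6 and 0 counts in controls and 7, 3, and 0 in *Hif1aCKO* and was not tested. *Cdk1* counts per *Cdk5* count were 4.57 and 3.36 in controls and 5.13, 6.59, and 4.51 in *Hif1aCKO*, which overlapped. On the per-length scale *Cdk5* had 79.1 ± 6.71 TPM and *Cdk1* 137 ± 18.0 TPM in controls, and 77.7 ± 3.48 and 184 ± 29.0 TPM in *Hif1aCKO*. The mitotic kinase was therefore above the neuronal one in both groups.

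*Ccnh* and *Cdk7* encode cyclin H and its kinase, the CDK-activating complex that also belongs to the transcription factor TFIIH. *Ccnh* had 1042 and 1057 normalized counts in controls and 822.4, 730.0, and 731.7 in *Hif1aCKO*, with every *Hif1aCKO* library below both controls. Its log2 fold change was -0.46 ± 0.16 SE (95% interval -0.82 to -0.10, unadjusted p = 0.0178, adjusted p = 0.621). *Cdk7* had 522.9 and 406.3 in controls and 326.0, 438.4, and 507.9 in *Hif1aCKO*, so the kinase overlapped where its cyclin did not. The cyclins G, which lie downstream of p53 (*Ccng1*) or rise as cells leave the cycle (*Ccng2*), overlapped as well. *Ccng1* had 460.4 and 821.8 normalized counts in controls and 749.5, 554.2, and 470.0 in *Hif1aCKO*, a spread within each group larger than the difference between them. *Ccng2* had 283.3 and 199.4 in controls and 174.8, 352.5, and 168.3 in *Hif1aCKO*.

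A list of 42 genes that act around these members, among them ubiquitin ligases, E2F and retinoblastoma family genes, the MuvB complex, and checkpoint kinases, was read beside them. Of 41 tested, 26 were fitted higher and 15 lower, with a median log2 fold change of 0.16. In edgeR 0 passed the thresholds. At an unadjusted p-value under 0.05 in edgeR, 6 were higher, against 3.83% of all genes tested, and 1 was lower, against 3.85%. DESeq2 called 2, against 0.149% of all genes it fitted in each direction (0.194% of those given an adjusted p-value). The 4 with the smallest p-values were all higher. *Plk1*, a kinase of mitotic entry, had 751.0 and 833.8 normalized counts in controls and 1534, 1620, and 1389 in *Hif1aCKO* (log2 fold change 0.93 ± 0.16 SE, adjusted p = 0.471). *Cdc20*, the activator of the complex that degrades cyclin B, had 1550 and 1444 in controls and 2496, 3703, and 2472 in *Hif1aCKO* (log2 fold change 0.95 ± 0.21 SE, adjusted p = 0.586). These were the 2 that DESeq2 called. *E2f1*, a transcription factor of the G1/S transition, was low, at 30.21 and 39.88 in controls and 113.7, 119.8, and 126.5 in *Hif1aCKO*. *Skp2*, part of the ligase that degrades p27, had 241.6 and 186.4 in controls and 515.7, 319.5, and 379.5 in *Hif1aCKO*. The 4 genes were named for their small p-values. Each had all *Hif1aCKO* libraries above both controls, as did 12.9% of all genes tested.

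Of 32 further cyclins and CDKs, many of which act in transcription and not in the cycle, 27 were tested, 18 were fitted higher and 9 lower, and the median log2 fold change was 0.098. None passed the thresholds in edgeR or DESeq2. At an unadjusted p-value under 0.05 in edgeR, where 3.83% of all genes tested were higher and 3.85% lower, 2 were higher and 0 lower. These were *Ccny* (cyclin Y), with 195.8 and 223.5 normalized counts in controls and 465.3, 245.6, and 347.4 in *Hif1aCKO*, and *Ccna1* (cyclin A1), with 28.12 and 24.12 in controls and 60.04, 85.88, and 49.62 in *Hif1aCKO*. The next by p-value were *Ccnl1*, a cyclin of RNA splicing, with a log2 fold change of 0.37 ± 0.17 SE, and *Ccnc*, a cyclin of the Mediator complex, with -0.34 ± 0.16 SE. *Ccnc* was below both controls in all *Hif1aCKO* libraries, as *Ccnh* was.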

How the data were processed

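RNA-seq of 5 libraries of 100 sorted cells each was analysed. The authors trimmed reads with cutadapt (version 1.18), removed ribosomal and vector reads with Bowtie (version 1.2.2) and SortMeRNA, mapped to GRCm38 with STAR (version 2.7.0c), and counted reads per gene with Rsubread, leaving out reads with several mapping positions. The deposited values are raw counts. Names, positions, and exonic lengths were taken from GENCODE release M21, which holds all but 29 of the identifiers, and TPM was computed from these lengths.

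*Hif1aCKO* was compared with control in edgeR (version 4.0.16; R version 4.3.3) with TMM, filterByExpr, and the quasi-likelihood test, with Benjamini-Hochberg adjustment over the 15032 genes kept. Standard errors were derived from the log2 fold change and the F statistic of this test, and 95% intervals from the t distribution. Both include the spread between libraries. The floors of 3 counts for single libraries cover counting error only. The fits were also run on simulated counts with the same dispersion for all genes and with changes larger than those of most members. That run does not show how well they detect changes of the size seen here. Alternatives were DESeq2 (version 1.42.0), limma-voom (version 3.58.1), RLE size factors, a minimum of 10 counts in every library in place of the filter, no filter on low counts, a term for libraries with *Xist* counts, and leaving out each library. No pair of libraries agreed within sampling noise. Python (version 3.11.15) with numpy (version 2.4.6) and pandas (version 2.3.3) made the tables, and matplotlib (version 3.10.9) drew the plots.

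The members and all gene lists were chosen with earlier results of these data known, so no test was made over a list. The genes named are all 34 members, *Hif1a*, *Isl1*, and *Prph* as checks of the labels, and *Mki67* and *Top2a* as a readout of cycling cells. From the cell type lists, the most abundant gene, a defining marker, and neuron markers of differing direction are named. From each of the 2 other gene lists, the 4 genes with the smallest p-values are named. Some genes that overlap a member in the annotation are named beside it, and others are not. Among those not named there are *Exosc9* (12.5% of the exonic bases of *Ccna2*), *Paqr4* (8.76% of *Pkmyt1*), and *AC167363.2* (7.68% of *Cdkn1a*).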

Additional observations from a re-analysis of the deposited data

How the results depend on the processing

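The number of genes called over all genes tested was 60 with DESeq2, and it ranged from 0 to 4 when 1 library was left out of the edgeR fit. The number of members called was 2 with DESeq2 and, with 1 library left out of the DESeq2 fit, ranged from 0 (without *Hif1aCKO* replicate 4) to 2 (*Ccnb1* and *Ccnd1*, without *Hif1aCKO* replicate 3), with *Ccnb2*, *Ccnd1*, and *Ccnb1* alone without control replicate 5, control replicate 6, and *Hif1aCKO* replicate 5. The members at an unadjusted p-value under 0.05 ranged from 2 to 9 (higher) and from 1 to 2 (lower) over the left-out libraries. The G1 and G1/S median ranged from -0.044 to 0.10, and the medians of the other roles moved by less than the spread between replicates in the edgeR fits. In DESeq2 with 1 library left out, which also fits members too low for edgeR, the inhibitor median ranged from 0.13 to 0.49 and the *Cdk5* group median from -0.024 to 0.38, beyond that spread. Of the 31 tested members, 18 kept their fitted direction in every alternative and 13 did not. With all libraries, the direction turned for *Ccnd2* in limma-voom (-1.16) and for *Ccne2* without the filter (-0.0057), in limma-voom (-0.028), and with the *Xist* term (-0.021). With 1 library left out, the log2 fold change ranged from -0.67 to 1.84 for *Ccnd2*, -0.072 to 0.49 for *Ccne1*, -0.23 to 0.15 for *Ccne2*, -0.48 to 0.36 for *Ccng1*, -0.49 to 0.21 for *Ccng2*, -0.22 to 0.014 for *Cdk2*, -0.015 to 0.18 for *Cdk4*, -0.12 to 0.053 for *Cdk5*, -0.31 to 0.060 for *Cdk7*, -0.081 to 0.28 for *Cdkn1b*, -1.32 to 0.25 for *Cdkn2c*, -0.0017 to 0.12 for *Cdkn2d*, and -0.031 to 0.45 for *Cdc25a*. The cause was not tested. No paired analysis was made, because the labels give no litter and do not say that a replicate number marks a pair. Without 1 control library, the lone control is assumed to vary like the *Hif1aCKO* libraries. *Cdkn2b* and *Cdk5r2* had too few counts for a test.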
